A study of Mus musculus with 120 samples.

Results

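The genes encoding the proteins of the cytosolic ribosome were followed through the activation of single mouse group 2 innate lymphoid cells (ILC2s). Members were chosen by symbol alone: every protein-coding gene named Rpl or Rps with a number and at most 1 further letter, together with Rplp0, Rplp1, Rplp2 and Rpsa. The rule found 80 genes among 46078 identifiers, 31 of the small subunit and 49 of the large subunit. The rule itself uses no measured value, but it was chosen with earlier results of these data known. Of the 80 genes, 77 had reads and a mean over the 12 groups of at least 50 CPM (gene reads scaled to a total of 1000000). The other 3, the paralogues Rpl3l, Rpl39l and Rpl10l, had 0 reads in all 120 cells, which allows a level of up to 0.0967 CPM over all reads.

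ILC2s answer the alarm cytokine IL-33 by secreting type 2 cytokines, and the study recovered cells by the time since secretion began under live-cell imaging. Cells came from the pooled mesentery (fat tissue in the labels) of 20 wildtype C57BL/6 mice and were sorted for c-Kit and Sca-1 after removal of lineage-positive cells. Per the study's methods the donors were usually retired female breeders, and the sorted cells were kept in culture with IL-2 over several months, so the pre-stimulation cells were cultured cells and not freshly isolated ones. For each index cytokine, IL-13 or IL-5, there were 5 pre-stimulation cells, labelled with treatment none (IL-5) or a dash (IL-13). All other groups held 11 cells each, incubated with IL-2 and IL-33: transition cells taken 30, 60 or 90 min after the onset of secretion of the index cytokine, activated cells, and silent cells. Per the study's methods, activated and silent cells were taken late in the stimulation with and without detected secretion. Below, the cells recovered by IL-13 onset are called the IL13 set and those recovered by IL-5 onset the IL5 set, each with its own pre-stimulation, activated and silent cells (IL13 index and IL5 index in the plots). Since no label ties a cell to an animal or a culture, each of the 12 groups was treated as 1 sample, cells were not counted as replicates, and no test was made.

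Each cell was 1 library of reads from the 3′ ends of transcripts. Gene reads per cell ran from 65 to 785198 with a median of 254001, and summed reads per group ran from 964383 to 3732032. The 3 cells under 10000 gene reads (IL5 set, 30 min replicate 10, 60 min replicate 8 and silent replicate 7) stayed in the group sums and were left out of values given per cell. The marker list of ILC2s had reads for 8 of 8 genes, at a summed 2538 to 6324 CPM in every group, and the sort genes Kit and Ly6a lay between 2487 and 7226 CPM. All B cell (3 of 3) and NK cell (2 of 2) markers had 0 reads, as did Cd4, Cd8a, Mcpt4, Adipoq and Col1a1. Mast cell markers reached 326 CPM and were at 300.7 CPM in pre-stimulation cells of the IL13 set against 37.1 CPM in those of the IL5 set. ILC3 markers reached 344 CPM, fat and stroma markers 175 CPM, T cell markers 78.8 CPM and myeloid markers 38.3 CPM. Their part in the results was not tested. Libraries were pooled in sets of 5 or 6 before tagmentation, the same size as the cells of 1 state on 1 title date, so state and pool cannot be told apart. Pre-stimulation cells came from the first title date of each index only.

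A cytosolic ribosome is built from ribosomal RNAs and a nearly equimolar complement of proteins, whose mRNAs are among the most abundant in most cells. Most of these mRNAs begin with an unbroken run of pyrimidines, the 5′ terminal oligopyrimidine (TOP) tract, through which their translation is coupled to growth signalling by mTOR and the RNA-binding protein LARP1. Lymphocytes that leave rest for activation are known to raise ribosome production and protein synthesis. A few members have paralogues, such as Rps27 and Rps27l, which encode alternative forms of the small subunit protein eS27. Rps27l is also known as a target of the tumour suppressor p53.

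RefSeq promoters (GRCm38.p6) were searched for such tracts, since they are the feature by which these mRNAs are best known. A tract was taken as at least 8 unbroken bases of C or T on the transcribed strand, touching the 10 bases on either side of a listed transcription start. Of the 57 measured members with a listed promoter, 28 (49.1%) held a tract, against 15.8% of all 27025 listed genes and 15.9% of the 2106 matched genes measured here. The median longest run was 7 bases in members and 4 bases in all genes. In the sequences below, capitals mark the longest run that touches the 10 bases on either side of the start. The sequences run from 30 bases before to 20 bases after the start, 5′ to 3′ on the transcribed strand. They are Rps27 (chr3:90213629-90213678, minus strand) and Rps27l (chr9:66946056-66946105, plus strand), paralogues that differed in opposite directions between states, and Rps26 (chr10:128626487-128626536, minus strand), the member that differed most between activated and pre-stimulation cells of the IL13 set. Rps6 (chr4:86857348-86857397, minus strand), a classical TOP mRNA, and Rpl37a (chr1:72711230-72711279, plus strand), whose longest run at the listed start was 3 bases, are shown for comparison. GENCODE M21 begins the Rpl37a gene at 72711290, past the RefSeq start, so the short run belongs to the RefSeq start only.
Rps27: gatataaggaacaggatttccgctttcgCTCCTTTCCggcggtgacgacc
Rps27l: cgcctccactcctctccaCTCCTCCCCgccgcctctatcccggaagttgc
Rps26: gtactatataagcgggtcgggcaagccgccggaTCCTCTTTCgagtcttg
Rps6: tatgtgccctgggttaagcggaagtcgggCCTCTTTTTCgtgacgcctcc
Rpl37a: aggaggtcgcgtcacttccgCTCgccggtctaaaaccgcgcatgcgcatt
The run was 9 bases in Rps27, in Rps27l and in Rps26, and 10 bases in Rps6. Rps27 and Rps27l therefore both had a run of this length near the start, but not at the same position. The Rps27 run spans the listed start, while the Rps27l run ends before it, outside a transcript that begins at that start. GENCODE M21 begins the Rps27l gene at 66946086, also past the run. A match in letters does not show where transcripts begin.

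Ribosomal protein genes took the highest share of gene reads before stimulation, and a lower pooled share in every stimulated group of the same index. The pooled share was 19.9% in pre-stimulation cells of the IL13 set, whose 5 cells were at 9.77%, 27.5%, 22.5%, 24.3% and 20.0%. It was 20.9% in those of the IL5 set, at 18.2%, 20.7%, 27.2%, 16.3% and 21.5%. At 30 min after onset the share was 15.4% (IL13 set, cells from 11.2% over a median of 15.8% to 18.1%) and 15.2% (IL5 set, 9.82%, 16.6% and 17.3%). The 30 min cells thus lay lower than most pre-stimulation cells, and within a narrower range. At 60 min the share was 15.8% and 15.6%, and at 90 min it was 16.1% and 14.3% for the IL-13 and IL5 set. Activated cells stood at 18.7% in the IL13 set (12.5%, 19.6% and 21.3%) and at 16.5% in the IL5 set (11.8%, 17.5% and 20.4%). Silent cells stood at 17.1% (7.67%, 18.8% and 22.8%) and 18.7% (10.4%, 19.0% and 20.7%). Pooled over dates, the order of activated and silent cells differed between the indexes, and their cells overlapped in both. On the first date alone activated cells lay below silent cells in both, at 18.2% and 19.4% in the IL13 set and at 18.7% and 19.4% in the IL5 set. The lowest cell of all, replicate 11 at 90 min of the IL5 set, had a share of 2.19% with 66588 gene reads and 14.1% mitochondrial reads, and without it that group stood at 14.7%.

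**Figure D1:**
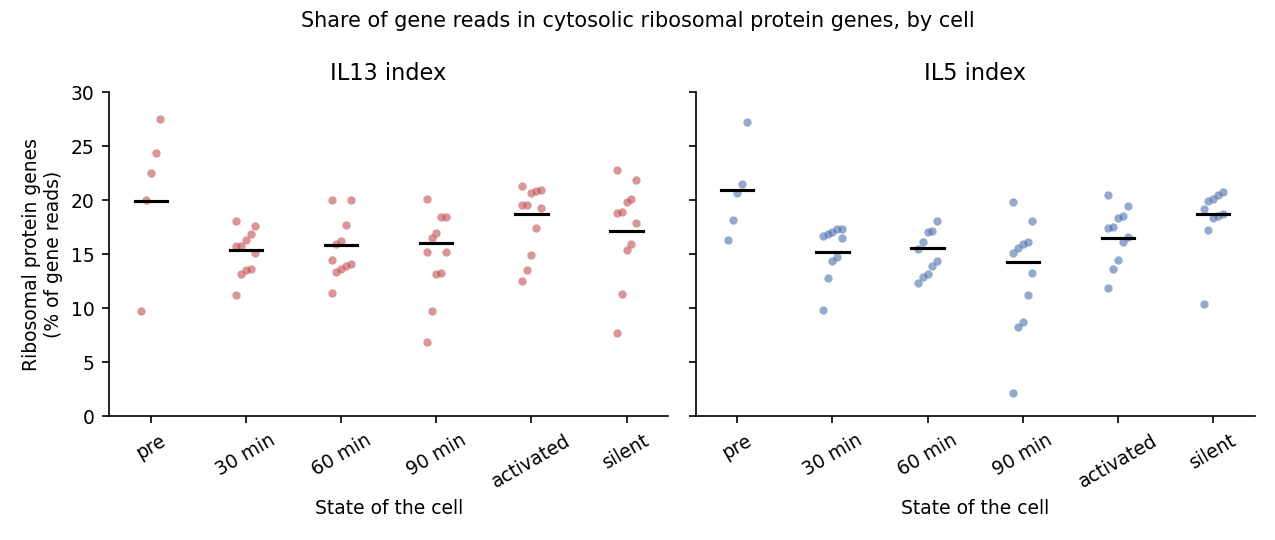
Share of gene reads in ribosomal protein genes (y axis, percent) in the 12 groups (x axis, by state and index). Each dot is 1 cell with at least 10000 gene reads and each bar is the pooled share. The bars stand at 19.9% and 20.9% before stimulation and at 15.4% and 15.2% at 30 min.

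The question of the first comparison was how cells at the onset of secretion differ from cells before stimulation. At 30 min the pooled share of ribosomal protein genes was 22.8% lower in the IL13 set and 27.3% lower in the IL5 set. On the log2 scale the ratio was −0.37 (95% interval −0.38 to −0.36) and −0.46 (−0.47 to −0.45). These intervals, like all others here, cover the counting of reads only, without molecular identifiers, and not the spread between cells. In each set 4 of 5 pre-stimulation cells lay above every 30 min cell. In the IL5 set 4 of 10 cells at 30 min lay below every pre-stimulation cell, and in the IL13 set 0 of 11 did. The exception in the IL13 set was pre-stimulation replicate 1, at 9.77%, the cell with 4234 genes detected where the group's median was 2024. Without it the pre-stimulation share was 23.3% and the log2 ratio at 30 min was −0.60, and without replicate 2 it was −0.25.

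The lower share was spread over many members and did not rest on a few. At 30 min 65 of the 77 measured members were lower than before stimulation in the IL13 set, where 48.6% of the 2658 genes measured at 50 CPM or more were lower. For the IL5 set 65 of 77 were lower as well, against 44.8% of all genes. Small subunit genes (25 and 26 of 31 lower) and large subunit genes (40 and 39 of 46 lower) were alike in this. The median log2 ratio over members was −0.41 in the IL13 set and −0.46 in the IL5 set, where the median over all genes was 0.05 and 0.23. Most members moved by less than 2-fold. In the IL13 set 5 members were lower by 2-fold or more, where 23.8% of all genes were, and 1 was higher, where 32.1% of all genes were. Within the IL5 set 3 were lower, against 20.4% of all genes, and 1 was higher, against 36.2%. The count of 5 depended on single cells, from 2 without 30 min replicate 2 or 6 to 12 without pre-stimulation replicate 1, and the count of 3 from 1 without 30 min replicate 11 or pre-stimulation replicate 3 to 7 without pre-stimulation replicate 4.

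**Figure D2:**
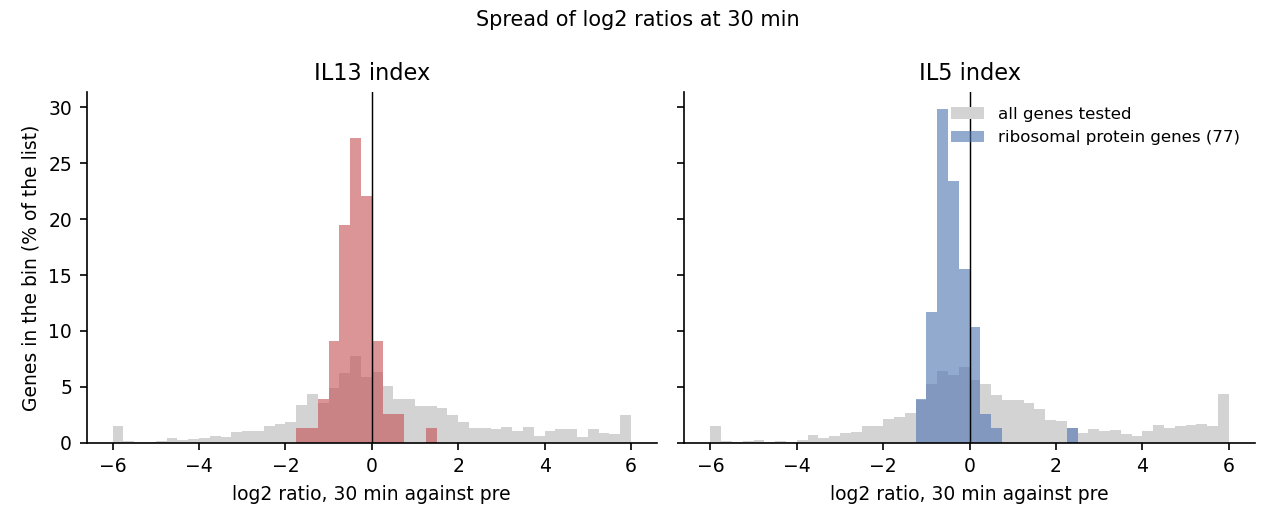
Distribution of log2 ratios of CPM, 30 min against pre-stimulation (x axis, bins of 0.25), for the 77 measured members and for all 2658 genes (y axis, percent of genes in the list), 1 panel per index, with ratios beyond 6 in either direction placed in the end bins. Members form a narrow peak below 0 with medians of −0.41 and −0.46, while all genes spread widely around 0.05 and 0.23.

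The size of this difference depended on how libraries were scaled. Scaling by the trimmed mean of M values (TMM) moved the median of all genes by 0.21 in the IL13 set and 0.36 in the IL5 set. The ratio of the share was then −0.16 and −0.10, and 51 and 46 of 77 members were lower, where 43.3% and 35.7% of all genes were. With DESeq2 size factors 60 and 65 of 77 were lower, where 45.9% and 43.9% of all genes were. The median member lay 0.46 below the median gene in the IL13 set and 0.69 below it in the IL5 set, a gap that is the same under each scaling by construction, because 1 factor moves all genes of a group alike.

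The members that stood out at 30 min were mostly different ones in the 2 indexes. For the IL13 set the lowest ratio belonged to Rpl7a, which encodes a large subunit protein, at 751 CPM before stimulation and 264 CPM at 30 min (log2 ratio −1.51, interval −1.66 to −1.35). Its 5 pre-stimulation cells ran from 0 to 2373 CPM, and without the highest, replicate 3, the level before stimulation was 416 CPM and the ratio −0.65, under 2-fold. In the IL5 set Rpl7a was higher at 30 min, at 605 and 865 CPM (0.52). Rpl22, a large subunit protein with a known role in T cell development, was at 923 and 341 CPM in the IL13 set (−1.44) and at 843 and 601 CPM in the IL5 set (−0.49). Rpl39 (−1.04 in the IL13 set) was the next lowest. Rpl29 and Rpl35a were the others past 2-fold, and Rpl35a was named after its values were seen. The highest ratios there were those of Rps26 (1.32), Rps9 (0.58) and Rpl3 (0.51). On the first date, the only one with pre-stimulation cells, Rps26 was at 573 CPM before stimulation and 815 CPM at 30 min, and 0 members were higher by 2-fold or more. Among IL5 cells the 3 members lower by 2-fold or more were Rpl10 (1378 and 632 CPM, −1.13), a late-joining large subunit protein, Rps28 (2522 and 1221 CPM, −1.05) and Rpl13a (4107 and 2004 CPM, −1.04). With TMM factors these were at −0.77, −0.69 and −0.68, and 0 members were lower by 2-fold or more either with those factors or on the first date alone. The highest ratios of the IL5 set were those of Rps27l (2.26), Rpl7a and Rpl8 (0.27). Rps28 was also low in the IL13 set at −0.95, whereas Rpl10 was at 0.10 and Rpl13a at −0.18 there. Over the 77 members the 30 min ratios of the indexes, which share no cells, had a Pearson correlation of 0.22 and a Spearman correlation of 0.18, and 61 had the same sign. Genes measured in the same cells are not independent replicates.

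Activated cells differed from pre-stimulation cells less in the total than the 30 min cells did. The share of the members was 5.94% lower in the IL13 set (log2 ratio −0.09) and 20.9% lower in the IL5 set (−0.34). Of the 77 measured members 39 were higher and 38 lower in the IL13 set, and 27 were higher and 50 lower in the IL5 set, where 43.6% and 45.1% of all genes were lower. The median log2 ratio of members was 0.09 and −0.23, beside 0.27 and 0.23 over all genes. Within the IL13 set 2 members (Rps26 and Rps27l) were higher by 2-fold or more, against 35% of all genes, and 2 (Rps27 and Rps28) were lower, against 23.9%. In the IL5 set 1 (Rps27l) was higher, against 36.2%, and 7 were lower, against 24.9%, among them Rps27, Rpl37a, Rps21, Rpl13a, Rps28 and Rpl30. The 2 higher members of the IL13 set became 5 without pre-stimulation replicate 2, 3 or 5 and the 2 lower ones 6 without replicate 1, and the 7 lower members of the IL5 set became 11 without pre-stimulation replicate 4. The direction of the total depended on scaling, since with TMM factors the ratio of the share was 0.15 and 0.13. Then 54 and 52 of 77 members were higher and 23 and 25 lower, where 38.3% and 34.8% of all genes were lower. With TMM factors 7 members were higher by 2-fold or more and 1 lower in each set. The share of all genes past 2-fold was not counted with those factors, which moved the median of all genes by 0.24 and 0.47. The median member minus the median gene was −0.19 and −0.46 under each scaling by construction. Cytokine genes took 6.93% and 8.25% of reads in activated cells, against 0.0216% and 0.0166% before stimulation. Without mitochondrial, cytokine and chemokine reads the ratio was 0.0079 in the IL13 set and −0.22 in the IL5 set. Without IL-13 pre-stimulation replicate 2 the IL-13 ratio was 0.03, and without replicate 1 it was −0.32.

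The cells of the groups were also compared one by one, and members were separated in the IL5 set but not in the IL13 set. For the IL5 set the activated cells of 1 member, Rps27l, all lay above every pre-stimulation cell, where 2.6% of all genes did so, a larger share than 1 of 77. The activated cells of 4 members, among them Rps27, Rpl37a and Rpl13a, all lay below every pre-stimulation cell, where 1.09% of all genes did so. Among IL13 cells 0 members were separated upward, against 0.715% of all genes, and 0 downward, against 0.602%. The member ratios of the 2 indexes had a Pearson correlation of 0.76 and a Spearman correlation of 0.70 over 77 members, and 53 had the same sign.

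**Figure D3:**
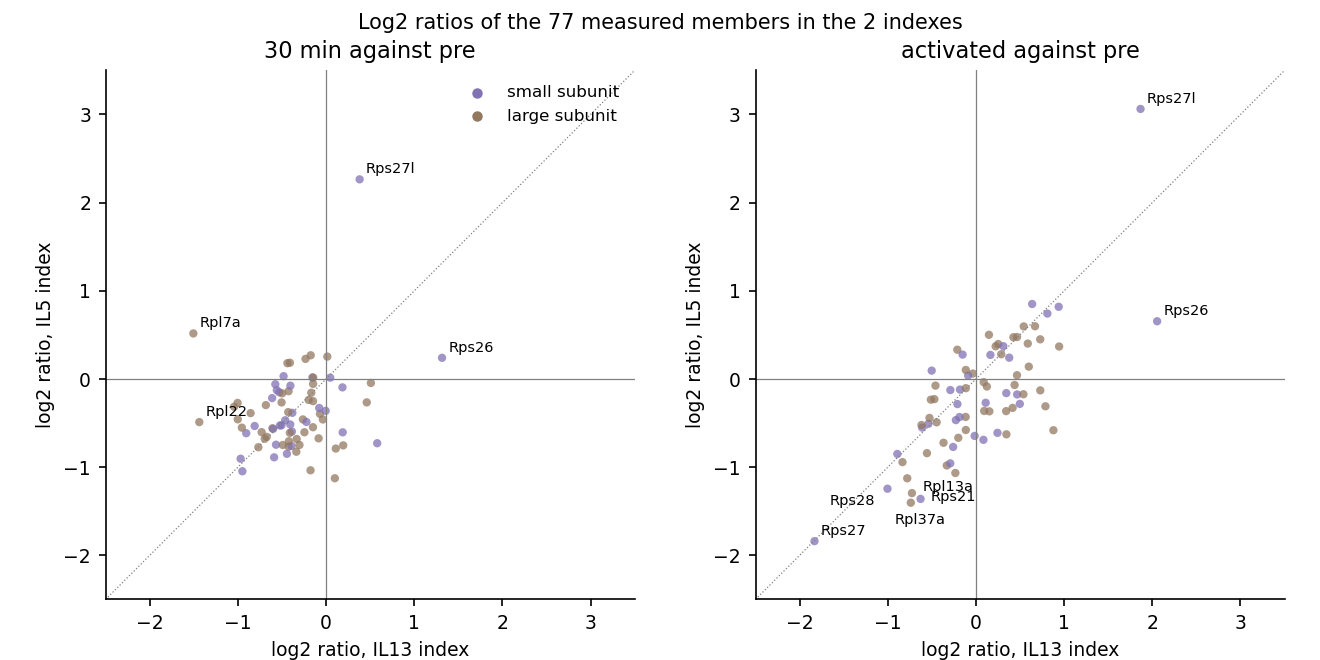
Log2 ratio of CPM of each of the 77 measured members in the IL13 set (x axis) and the IL5 set (y axis), 30 min against pre-stimulation on the left and activated against pre-stimulation on the right, coloured by subunit. In the right panel Rps27 lies at the lower left (−1.83 and −1.84) and Rps27l at the upper right (1.87 and 3.06), and most other members lie within 1 of 0.

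Rps27 and its paralogue Rps27l differed between states in opposite directions. In activated cells Rps27 had the lowest ratio of the members in both indexes, and Rps27l the highest in the IL5 set and the second highest, after Rps26, in the IL13 set. Rps27, the main eS27 gene, was at 10669 CPM (10464 to 10877) in pre-stimulation cells of the IL13 set, whose 5 cells were at 4457, 15594, 12930, 12935 and 10404 CPM. Within the IL5 set it was at 10705 CPM (10521 to 10890), with cells at 9290, 10004, 10612, 9904 and 13800 CPM. Pooled over dates its level was lower at each later time: 8157 and 7082 CPM at 30 min, 6636 and 5810 CPM at 60 min, and 6484 and 4882 CPM at 90 min for the IL-13 and IL5 set. On the first date alone Rps27 was higher at 90 than at 60 min, at 5176 against 5096 CPM in the IL13 set and 5379 against 4967 CPM in the IL5 set. At 30 min the IL13 set was at 5909 CPM on the first date and 9483 CPM on the second. In activated cells Rps27 was at 2999 CPM in the IL13 set (cells from 556 over a median of 2604 to 6408) and at 2992 CPM in the IL5 set (1500, 3180 and 4613). The activated IL-5 cells did not overlap the pre-stimulation cells, while those of the IL13 set overlapped only through pre-stimulation replicate 1. In silent cells it was at 5869 and 5250 CPM, between the pre-stimulation and the activated level. The log2 ratio of activated to pre-stimulation cells was −1.83 (−1.87 to −1.79) and −1.84 (−1.88 to −1.80), or 3.56-fold and 3.58-fold lower, and leaving out any 1 cell gave −2.09 to −1.68 and −1.92 to −1.74.

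Rps27l went the other way. It was at 850 CPM (793 to 911) before stimulation in the IL13 set, with cells at 1324, 764, 771, 1102 and 241 CPM. Among IL5 cells it was at 429 CPM (393 to 467), with a lowest cell of 4.67 CPM and a highest of 819 CPM. The pre-stimulation cells of the indexes thus differed in their pooled level, with overlapping cells. At 30, 60 and 90 min Rps27l was at 1107, 1600 and 2073 CPM in the IL13 set and at 2061, 2559 and 1851 CPM in the IL5 set. In activated cells it reached 3101 CPM (782, 3100 and 5266) and 3585 CPM (1293, 3330 and 5480). Silent cells, at 1694 and 1767 CPM, again lay in between. The log2 ratio of activated to pre-stimulation cells was 1.87 (1.76 to 1.97) and 3.06 (2.94 to 3.19), which is 3.65-fold and 8.36-fold higher, with 1.60 to 2.17 and 2.79 to 3.49 when any 1 cell was left out. Both genes kept this direction under TMM and DESeq2 scaling.

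Because both genes are read in the same cell, their ratio does not depend on library scaling. Rps27l held 7.38% (6.90% to 7.88%) of the reads of the pair in pre-stimulation cells of the IL13 set and 3.85% (3.53% to 4.19%) in those of the IL5 set. It held 11.9%, 19.4% and 24.2% at 30, 60 and 90 min in the IL13 set, and 22.5%, 30.6% and 27.5% in the IL5 set. In activated cells it held 50.8% (50.1% to 51.5%) and 54.5% (53.9% to 55.1%), so that both genes had about equal numbers of reads. Silent cells held 22.4% and 25.2% of pooled reads. By cell the activated groups ran from 23.1% over 53.5% to 72.1% and from 28.9% over 55.8% to 68.9%, and the silent groups from 2.56% over 13.4% to 42.7% and from 0.493% over 25.6% to 48.2%. The median cell at 90 min of the IL13 set was at 24.6%, above the median silent cell, while the pooled values lay near each other. Rps27l had more reads than Rps27 in 8 of 11 and 7 of 11 activated cells, in 1 cell at 60 min of each index, and in 0 cells of the other groups. In the IL5 set every activated cell lay above the highest pre-stimulation cell, at 7.17%. In the IL13 set every activated cell also lay above the highest pre-stimulation cell, at 22.9%, which was replicate 1, and without that cell the group stood at 5.10%.

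**Figure D4:**
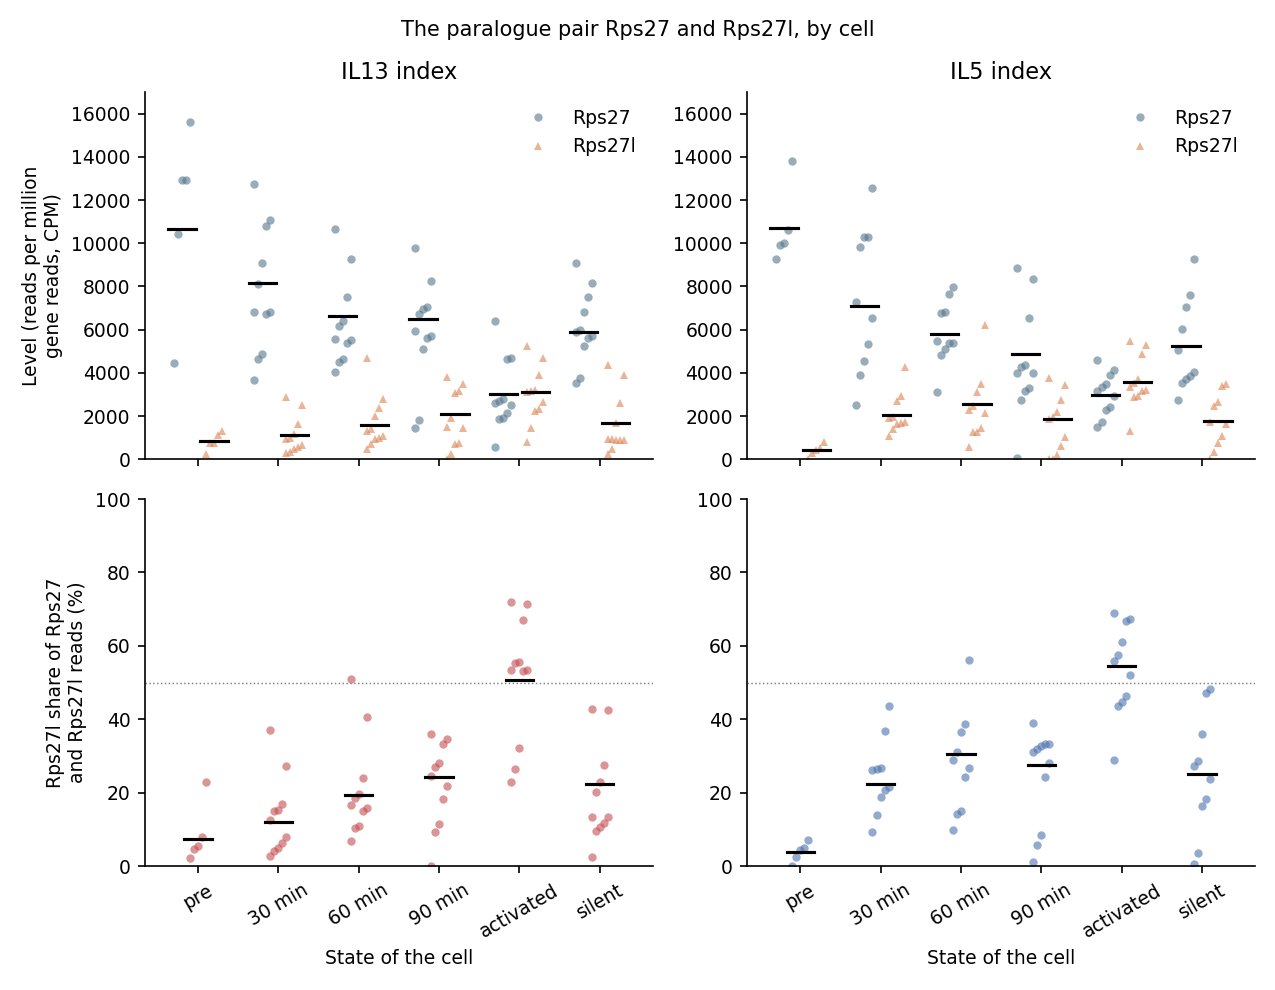
Top, CPM of Rps27 and Rps27l in each cell (dots) in the 12 groups; bottom, Rps27l as percent of the reads of both genes in each cell, with a dotted line at 50%. The pooled percent is 7.38% and 3.85% before stimulation and 50.8% and 54.5% in activated cells, and silent cells lie between.

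On each title date activated cells held a higher percent of Rps27l than the transition and silent cells of the same date and index. Activated cells stood at 45.9% and 54.1% on the first and second date of the IL13 set and at 53.6% and 55.3% in the IL5 set, and silent cells of the IL13 set at 20.8% and 23.3%. At 30 min the IL13 set was at 20.1% on the first date and at 8.52% on the second, the latter close to the 7.38% of the pre-stimulation cells, which came from the first date only. The 90 min cells of the IL5 set stood at 22.4% and 32.1% on the first and second date, where silent cells stood at 22.4% and 28.4%. The annotated transcripts of Rps27 (chr3:90212522-90213651) and Rps27l (chr9:66946086-66949516) shared 0 stretches of 50 bases, and no other annotated gene overlapped their exons. Rps27 did share 258 of 409 such stretches with Rps27rt, a gene outside the rule. Rps27rt was at 629 and 155 CPM in pre-stimulation and activated cells of the IL13 set and at 785 and 160.5 CPM in those of the IL5 set, lower in activated cells like Rps27, and adding its reads to Rps27 gave 49.6% and 53.2% for the pair in activated cells. Genes detected per cell, after thinning to 50000 reads, had a median of 1759 and 2070 before stimulation and of 2664 and 2838 in activated cells, so this measure moved with the pair and its part in the result was not tested. Of the p53 pathway, Mdm2 was lower in activated than in pre-stimulation cells of the IL13 set (log2 ratio −2.72) and higher in those of the IL5 set (2.31), and Trp53 was at −0.42 and 0.57.

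Rps26, a small subunit protein at the mRNA exit channel, was higher in activated cells of both indexes. For the IL13 set it was at 573 CPM before stimulation (cells from 284 over 486 to 1037), 1427 CPM at 30 min, 1317 CPM at both 60 and 90 min, 2383 CPM in activated and 1976 CPM in silent cells. For the IL5 set it was at 1551, 1832, 2519, 1498, 2442 and 2839 CPM in the same order. The log2 ratio of activated to pre-stimulation cells was 2.05 and 0.66, and the indexes differed chiefly in the pre-stimulation cells, where the IL13 set was lower by 1.44. Rps26 also differed between dates, at 1167 and 3174 CPM in activated cells of the IL13 set on the first and second date, so its high ratio there rested in part on the second date.

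Several other members shared the direction of Rps27 with smaller differences. Rpl37a, a zinc-binding large subunit protein and one of the members with most reads, was at 8632 CPM before stimulation and 5173 CPM in activated cells of the IL13 set (log2 ratio −0.74), and at 10398 and 3932 CPM in the IL5 set (−1.40). Its 5 pre-stimulation cells of the IL5 set all lay at or above 6364 CPM and its activated cells at or below 5838 CPM. Rps28 was at 2348 and 1171 CPM and at 2522 and 1065 CPM (−1.24 in the IL5 set), and silent cells were as low, at 952 and 1214 CPM. Rps28 thus was low in every stimulated group, with and without secretion. Rps21 was at 2340 and 1514 CPM (−0.63) and at 2934 and 1143 CPM (−1.36). Rpl13a, which is also known as a translational silencer in the interferon response, was at 3881 and 2347 CPM (−0.73) and at 4107 and 1675 CPM (−1.29). Other annotated genes on the same strand, Gm45713 among them, cover 35.4% of the exonic bases of Rpl13a, and reads in such overlaps may be missing from its counts. Rps12 was at −0.89 and −0.85, with −1.21 to −0.42 and −1.07 to −0.58 when any 1 cell was left out, while Rpl30 was at −0.23 and −1.07, and its IL-13 ratio was 0.0025 with TMM factors.

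Other members were higher in activated cells. Rpl38, a large subunit protein known for the selective translation of Hox mRNAs, was at 1910 and 3674 CPM before stimulation and in activated cells of the IL13 set (0.94) and at 2114 and 2729 CPM in the IL5 set (0.37). Its activated cells ran from 1864 to 5293 CPM in the IL13 set, against 715 to 2718 CPM before stimulation, so the groups overlapped. Rps2, which lies at the mRNA entry channel, was at 1421 and 2210 CPM (0.64) and at 1112 and 2006 CPM (0.85). Both genes were higher in activated cells under library totals, TMM and DESeq2 factors alike.

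**Figure D5:**
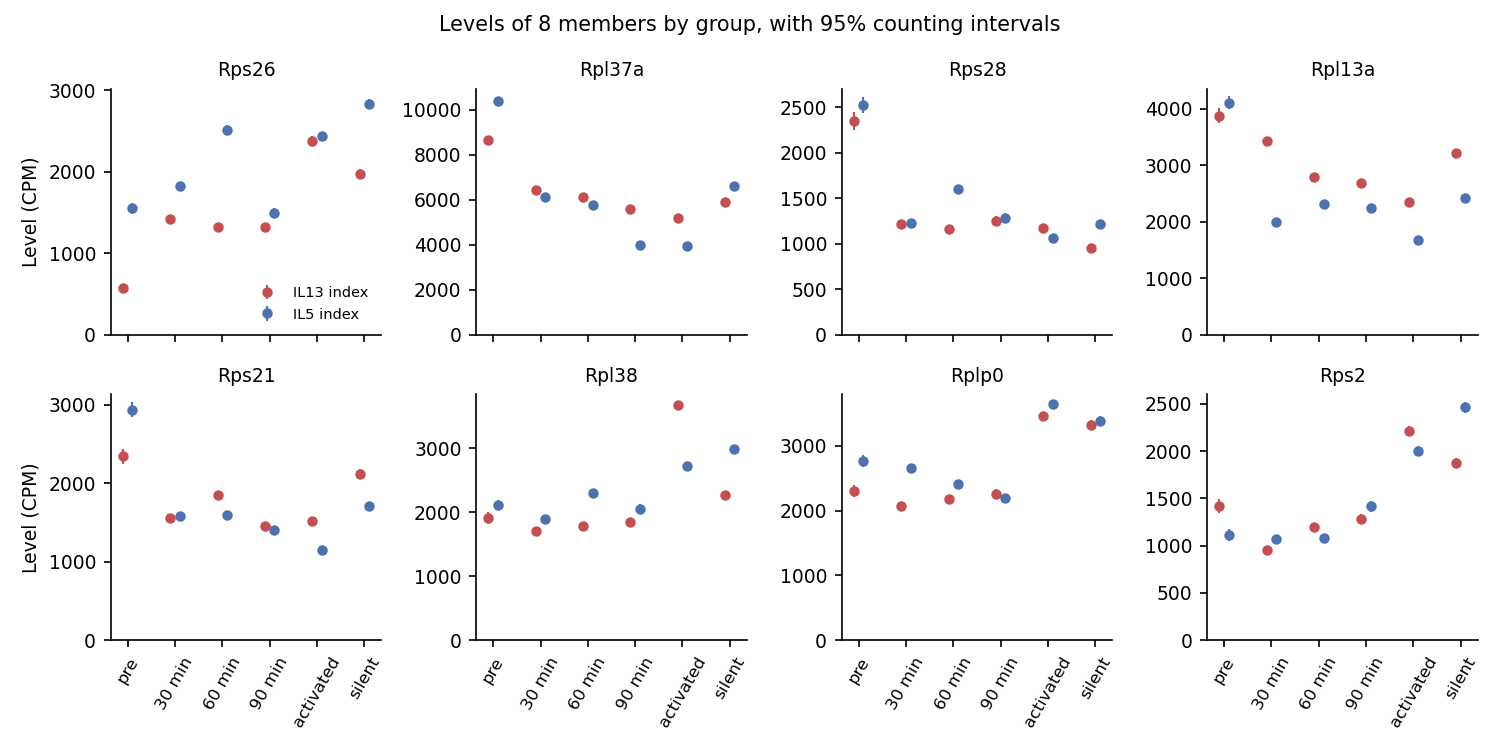
CPM (y axis) of Rps26, Rpl37a, Rps28, Rpl13a, Rps21, Rpl38, Rplp0 and Rps2 in the 6 states (x axis) of each index, 1 panel per gene, with 95% counting intervals. Rpl37a goes from 10398 CPM before stimulation to 3932 CPM in activated cells of the IL5 set, and Rplp0 from 2760 to 3647 CPM.

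The acidic stalk, which recruits the translation factors, did not move as 1 unit. Rplp0, its base, was at 2299 and 3456 CPM before stimulation and in activated cells of the IL13 set (0.59) and at 2760 and 3647 CPM in the IL5 set (0.40). Its partner Rplp2 was at 4379 and 4851 CPM (0.15) and at 2651 and 3752 CPM (0.50). Rplp1, the other partner, was lower, at 4409 and 2475 CPM (−0.83) and at 4270 and 2222 CPM (−0.94). The stalk genes together held 4.47% to 5.98% of member reads over the 12 groups.

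Members with known roles outside the ribosome showed no common direction. Rpl5 and Rpl11 form, with the 5S RNA, the particle that binds MDM2. Rpl5 was at 1187 and 2183 CPM before stimulation and in activated cells of the IL13 set (0.88) and at 2827 and 1890 CPM in the IL5 set (−0.58), opposite in the indexes. Rpl11 was at 2129 and 2272 CPM and at 2723 and 2118 CPM. Rps6, whose phosphorylation is the usual readout of mTOR signalling, was at 1045, 790 and 941 CPM before stimulation, at 30 min and in activated cells of the IL13 set, and at 981, 931 and 1188 CPM in the IL5 set. Its cells overlapped throughout. Rps27a, which encodes ubiquitin fused to a ribosomal protein, was at 2342, 1581 and 3308 CPM in the IL13 set and at 3164, 1888 and 2602 CPM in the IL5 set, lowest at 30 min in both. Rpsa, also known as a laminin receptor, was at 3112, 2287 and 2601 CPM and at 3486, 1937 and 2044 CPM. Rpl3, which reaches towards the peptidyl transferase centre, was at 945 CPM in activated and 1596 CPM in silent cells of the IL13 set, and at 1068 and 1996 CPM in the IL5 set, the second lowest and the lowest ratio of activated to silent cells among the members (−0.76 and −0.90). The sign of the activated ratio to pre-stimulation cells changed with scaling for Rps6 and Rpl3 in the IL13 set and for Rps27a, Rpl11 and Rpl3 in the IL5 set.

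Silent cells had the same cytokines in the medium but no detected secretion. Their pooled share of members was 14.0% lower than before stimulation in the IL13 set and 10.4% lower in the IL5 set (log2 ratio −0.22 and −0.16). On the first date, the only one with pre-stimulation cells, silent cells stood at 19.4% in each set, against 19.9% and 20.9% before stimulation. Silent cells of the second date stood at 15.9% and 18.0%. Over both dates 47 and 43 of 77 members were lower, where 41.9% and 43.6% of all genes were. By 2-fold or more, 1 member (Rps26) was higher and 1 (Rps28) lower in the IL13 set, where 33.9% and 18.7% of all genes were higher and lower. Within the IL5 set 2 (Rps27l and Rps2) were higher and 2 (Rps27 and Rps28) lower, where 35.3% and 21.7% of all genes were. Rps27 was at −0.86 and −1.03 and Rps27l at 0.99 and 2.04, in the direction seen in activated cells. The lowest ratios after Rps28 (−1.30) were those of Rplp1 (−0.94) and Rpl19 (−0.91) in the IL13 set, where Rpl5 (0.73) followed Rps26 and Rps27l among the highest. The IL5 set had Rps21 (−0.79) among the lowest and Rpl7a (0.96) among the highest. The 2 higher members of the IL5 set became 5 without pre-stimulation replicate 2 and 6 without replicate 3, and the 1 lower member of the IL13 set became 5 without pre-stimulation replicate 1. The split was 46 and 18 of 77 lower with TMM factors, where 40.5% and 33.9% of all genes were lower. With DESeq2 factors it was 58 and 43 of 77, where 46.5% and 44.2% of all genes were lower. The direction over the members thus depended on scaling in the IL5 set. All genes of the IL5 set moved with the scaling. With TMM factors 8 members of that set were higher and 0 lower by 2-fold or more, and the share of all genes past 2-fold was not counted with those factors. The median member of that set lay 0.30 below the median gene under each scaling by construction.

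Between activated and silent cells the share was 9.35% higher in activated cells of the IL13 set (0.13) and 11.7% lower in those of the IL5 set (−0.18). By title date the IL-13 ratio was −0.09 on the first and 0.26 on the second date, so that index gave no direction common to its dates. Among IL5 cells the ratio was −0.05 and −0.27. Within the IL13 set 0 members passed 2-fold in either direction, against 19.8% of all genes higher and 23.6% lower. In the IL5 set 1 member, Rps27l, was higher, against 14.7%, and 0 were lower, against 18.5%. Rps27 was at −0.97 and −0.81 and Rps27l at 0.87 and 1.02, so the pair also differed between secreting and silent cells.

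Between 30 min and activated cells the share was lower at 30 min by 17.9% in the IL13 set (−0.28) and by 8.06% in the IL5 set (−0.12), and 62 and 57 of 77 members were lower at 30 min, where 54.9% and 49.6% of all genes were. Among IL13 cells 10 members were lower by 2-fold or more, against 26.5% of all genes, and 1 (Rps27, at 1.44) was higher, against 22.9%. They included Rpl7a (−2.05), Rps27l (−1.49), Rpl29 (−1.47) and Rpl22 (−1.32). For the IL5 set 0 were lower by 2-fold or more, against 16.7%, and 1 (Rps27, at 1.24) was higher, against 21.8%. Over 77 members the ratios of the indexes had a Pearson correlation of 0.77 and a Spearman correlation of 0.76.

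Within member reads the composition was otherwise even. The small subunit held 41.7% to 44.4% of member reads in every group. For 56 of the 77 members the share of member reads varied by less than 2-fold over the 12 groups. The widest were Rps27l (a log2 range of 3.40), Rps26 (2.49) and Rpl7a (1.86). The 3 members with most reads, Rps27 (3.79% of member reads on average), Rpl37a (3.62%) and Rpl32 (3.33%), together held 10.7%. These are shares of 3′ reads and not compared as levels between genes of different length. The 80 genes lie on 19 chromosomes, with 14 on chromosome 7 and 4 on the X chromosome, among them Rps4x. Rps4x was at 2153 and 1861 CPM before stimulation and in activated cells of the IL13 set and at 1892 and 1554 CPM in the IL5 set. The sign of its ratio changed with scaling in both sets, from −0.21 and −0.28 to 0.026 and 0.19 with TMM factors.

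Ribosomal protein genes were detected in nearly every cell and varied less from cell to cell than most genes. After thinning each cell to 50000 reads, the median cell had reads for 76 or 77 members in every group, and the lowest cell had 56 (IL5 set, 90 min). The SD over cells of log2(CPM + 1) for the median member was between 0.507 (activated, IL5 set) and 1.90 (90 min, IL5 set), against 2.96 to 3.53 for the median gene at 50 CPM or more. Most members also have more reads than most genes, and level was not matched here. Reads of the members are also open to sharing with processed pseudogenes: the median member shared 41.8% of its 50-base stretches with another gene (0% to 86.7%), and 27 members shared over 50%. Rpl7a shared 81.2% and Rps28 44.8%, while Rps27l shared 13.7% and Rpl22 5.19%. Reads that aligned to several places were 28.7% of alignments (26.7% to 30.9% by group) and were not counted in genes, and pseudogenes of the members held 0.142% to 0.280% of gene reads.

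Members with and without a pyrimidine tract near the listed start were compared last, with no test. The 28 members with a tract had a median log2 ratio of −0.41 in the IL13 set and −0.35 in the IL5 set, and the 29 without had −0.43 and −0.49. In activated cells the medians were 0.15 and −0.08 with a tract and 0.09 and −0.28 without. Rps27 was the lowest member in activated cells of both indexes, and Rps27l the highest in the IL5 set and the second highest in the IL13 set. Their runs were of equal length, but only that of Rps27 covered the listed start, and that of Rps27l ended before it.

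Other genes of ribosome production are given as a description, because genes of low level before stimulation passed the filter on level through the stimulated groups. Of 15 genes for ribosome biogenesis 11 passed, and at 30 min 10 were higher by 2-fold or more and 0 lower in each index (median log2 ratio 2.49 and 3.24), as were 10 in activated cells of each index (2.97 and 3.83). Over all genes 32.1% and 36.2% were higher by 2-fold or more at 30 min, and 35% and 36.2% in activated cells. The 11 include Ncl, which encodes nucleolin, at 216 CPM before stimulation and 1691 CPM in activated cells of the IL13 set (2.97) and at 196 and 1051 CPM in the IL5 set (2.43), and Fbl, the rRNA methyltransferase fibrillarin, at 1.88 and 0.98. Dkc1, a pseudouridine synthase, had 0 reads before stimulation in both indexes, and 1680 and 858 reads in activated cells.

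Among 15 other TOP mRNAs, which encode translation factors and related proteins, 2 were higher by 2-fold or more and 1 lower at 30 min in the IL13 set, and 2 were higher and 3 lower in the IL5 set (median −0.18 and −0.38). Over all genes 32.1% and 36.2% were higher by that much and 23.8% and 20.4% lower. Eef1a1, the elongation factor that delivers tRNAs, was at −0.21 and −0.69 at 30 min and at −0.52 and −0.18 in activated cells. Npm1, a nucleolar chaperone, was at 2.00 and 2.71 in activated cells. Of the 7 ribosomal proteins that the symbol rule leaves out, 6 passed the filter, and at 30 min 4 were higher and 2 lower in the IL13 set and 2 higher and 4 lower in the IL5 set. By 2-fold or more 2 were higher in the IL13 set (Rpl22l1 at 1.38 and Rpl7l1 at 1.35), 1 in the IL5 set (Rpl7l1, from 0 to 555 reads) and 0 lower in either, beside the same shares of all genes. Rpl22l1 was at −0.59 in the IL5 set, and Rpl36al at 0.75 and 0.51. Fau, which encodes eS30, was at −0.83 and −0.86 at 30 min, and Rps3a1 at −0.43 and −0.61, both within the range of the members. Rack1, a scaffold on the small subunit, was at 0.18 and −0.88. The proteins of the mitochondrial ribosome, of which 64 of 78 passed the filter, had 19 higher and 23 lower by 2-fold or more at 30 min in the IL13 set and 19 and 17 in the IL5 set, beside the same shares of all genes. In activated cells 25 were higher and 4 lower in the IL13 set and 26 and 8 in the IL5 set (median 0.33 and 0.32), where 35% and 36.2% of all genes were higher and 23.9% and 24.9% lower. Of 10 listed regulators 6 passed, among them Myc, which drives ribosome genes, at 4.08 and 1.74 at 30 min, and Larp1, at 4.08 and 2.50 from 2 and 13 reads before stimulation.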

How the data were processed

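Single ILC2s were sequenced as 3′ mRNA libraries (SMART-Seq v4 3′ DE kit), 1 cell per library. The deposited files hold unnormalized counts of reads for each gene; the authors aligned reads to mm10 with TopHat2 and counted them with HTSeq. GRCh38 is also listed in the submitters' processing notes. How strand was treated, and which annotation release was used, is not given in the sources used here. Entries for reads in no feature (7.42% of alignments), ambiguous (1.86%) or not unique (28.7%) were left out, and 0 spike-in entries were listed. Symbols came from GENCODE M21 (GRCm38), which named 45143 of 46078 identifiers.

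Groups came from the source names in the labels. Each group's counts were added up over its cells and expressed as CPM. The log2 ratio of 2 groups' CPM was taken with sums under 3 reads set to 3, with an exact (Clopper-Pearson) 95% interval of the read split. The background was the 2658 genes whose 12 group values averaged 50 CPM or more. A call was a ratio of 2-fold or more. With 1 sample per group no test was made. Values by cell used the 117 cells with at least 10000 gene reads. By rule the text names, in each comparison, up to 3 members with the highest and 3 with the lowest ratio whose direction held when any 1 cell was left out, a fixed list (the stalk genes, Rpsa, Rps6, Rps27a, Rps27, Rps27l, Rpl3, Rpl22, Rpl10, Rps4x, Rpl5, Rpl11 and Rpl13a), and the members with most reads or the widest range. Rpl30 and Rpl35a were named after their values were seen. Values of some members that the rule names are not reported here, though they stay in all counts and sums. Members and gene lists were chosen with earlier results of these data known. Alternatives were TMM factors (edgeR 4.0.16) and DESeq2 1.42.0 size factors used as scaling only, 1 title date at a time, 1.5-fold, means over cells, other read totals, and each cell left out. Scripts ran in Python 3.11.15 (numpy 2.4.6, pandas 2.3.3, scipy 1.17.1, matplotlib 3.10.9) and R 4.3.3, and ratios and intervals were tested on simulated data.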

Additional observations from a re-analysis of the deposited data

Results flagged for a closer look

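In the 5 groups with 10 or fewer cells of at least 10000 gene reads, the highest and lowest cell were compared with the others for the member share, the share of Rps27l in its pair and the CPM of named members, and 8 of 130 combinations of group and measure held a cell far from the rest by Dixon's criterion, where chance gives about 1 in 20. Groups of 11 cells were not tested. Silent replicate 6 of the IL5 set had a member share of 10.4%, with the next cell at 17.3% and a median of 19.0%. Pre-stimulation replicate 1 of the IL13 set had 22.9% of the pair's reads in Rps27l, with the next cell at 7.85% and a median of 5.63%. Replicate 11 at 60 min of the IL5 set was highest for Rpl11 at 3560 CPM, for Rps27a at 4779 CPM and for Rps27l at 6197 CPM, where the next cells were at 2071, 2438 and 3482 CPM. Rps28 was at 202 CPM in replicate 4 of the same group, with the next cell at 1054 CPM. Rpsa was at 4784 CPM in 30 min replicate 6 of the IL5 set, with the next cell at 2404 CPM, and Rpl7a at 2690 CPM in silent replicate 2 of the IL5 set, with the next cell at 1590 CPM. The cause of these values was not tested.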

How the results depend on the processing

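The lower member share at 30 min kept its direction under every alternative run, with log2 ratios of −0.60 to −0.25 (IL13 set) and −0.56 to −0.33 (IL5 set) when 1 cell was left out and of −0.16 and −0.10 with TMM factors. The other shares depended on scaling or date. Activated against pre-stimulation gave 0.15 and 0.13 with TMM factors, 0.0079 in the IL13 set without mitochondrial, cytokine and chemokine reads, −0.16 in the IL5 set on the first date, and −0.32 to 0.033 and −0.44 to −0.21 without 1 cell (above 0 without pre-stimulation replicate 2 of the IL13 set). Silent against pre-stimulation gave 0.22 with TMM factors in the IL5 set, −0.039 on the first date in the IL13 set, and −0.45 to −0.10 and −0.26 to −0.03 without 1 cell. Activated against silent in the IL13 set gave 0.21 without those reads, 0.31 with TMM, −0.092 and 0.26 on the first and second date, and 0.03 to 0.20 without 1 cell. For the IL5 set it gave −0.070, −0.087 with TMM, −0.083 with DESeq2 factors, −0.053 and −0.27 by date, and −0.22 to −0.13. The 30 min against activated ratio in the IL13 set was −0.37 without those reads, −0.10 with DESeq2, −0.35 and −0.25 by date, −0.25 with all transition cells, and −0.32 to −0.25 without 1 cell. The IL5 ratio was −0.21, −0.24 with TMM, −0.18 on the first date, and −0.17 to −0.06. The cause of these moves was not tested.

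Counts of members past the threshold were small and moved with it. The share of all genes past a fold was counted only at 2-fold with library totals of all cells. The counts under the alternatives below therefore have no such share beside them and are not read as a result about the members. At 1.5-fold, 20 and 27 members were lower at 30 min than before stimulation, 13 and 7 higher and 10 and 19 lower in activated cells, 4 and 8 higher and 8 and 9 lower in silent cells. Activated against silent then had 8 higher in the IL13 set and 4 and 6 lower, and 30 min against activated 3 and 2 higher and 28 and 9 lower. With TMM factors 2 and 0 were lower by 2-fold at 30 min, 7 and 7 higher and 1 and 1 lower in activated cells, 2 and 8 higher in silent cells and 0 lower in those of the IL5 set, 3 higher against silent cells in the IL13 set, and 2 lower at 30 min against activated cells in the IL5 set. With DESeq2 factors 2 were lower at 30 min and 3 in silent cells of the IL13 set. With means over cells 9, 3 and 1 were lower there at 30 min, in silent cells, and in activated against silent cells. On the first date the IL13 set had 0 higher and 9 lower at 30 min, 2 higher in silent cells, 2 and 2 against silent cells and 0 higher against activated cells, and the IL5 set had 0 lower at 30 min, 3 higher in activated cells, and 1 lower against silent and against activated cells. Without 1 cell the counts higher and lower ran, for the IL13 set, over 1 to 2 and 2 to 12 (30 min), 2 to 5 and 1 to 6 (activated), 1 to 2 and 0 to 5 (silent), 0 to 2 and 0 to 1 (activated against silent) and 1 to 1 and 9 to 13 (30 min against activated). For the IL5 set they ran over 1 to 1 and 1 to 7, 1 to 2 and 6 to 11, 2 to 6 and 0 to 2, 0 to 1 and 0 to 1, and 1 to 1 and 0 to 1.

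The percent of Rps27l in its pair, for which alternatives were chosen after seeing the data, was 20.1%, 25.2% and 45.9% (30 min, 60 min, activated, IL13 set) and 22.4% and 22.4% (90 min, silent, IL5 set) on the first date. It was 8.52% and 17.2% (30 and 60 min, IL13 set) and 32.1% and 28.4% (90 min, silent, IL5 set) on the second date. As a mean over cells it was 20.9% (60 min, IL13 set) and 24.5% and 24.5% (30 and 90 min, IL5 set). Without 1 cell it ran from 49.1% to 54.1% and 53.1% to 56.1% in activated cells and from 5.10% to 8.72% and 2.89% to 4.92% before stimulation. Depth limits values by cell, and the 3 cells under 10000 gene reads were left out of them. No paired analysis was possible because replicate numbers were given in accession order and pair no cells.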
